A study of Mus musculus with 11 samples.

Results

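Immediate early transcription factors were examined in pancreatic islets of virgin and multiparous mice. The group held 10 genes, *Fos*, *Fosb*, *Fosl2*, *Jun*, *Junb*, *Egr1*, *Nr4a1*, *Ier2*, *Atf3* and *Klf6*, and was taken by gene symbol from the 55536 genes counted in each library. All 10 were found once and passed the filter on low counts in every comparison. Bulk RNA sequencing had been performed on 11 islet libraries from wild-type female C57BL/6J mice that were 9 weeks old at the start. Multiparous mice had given birth 3 times in a row and were studied 3 weeks after the last delivery, and virgin mice of the same age served as controls. The groups were virgin with S-961 (3 libraries), multipara with S-961 (4 libraries), virgin without treatment (2 libraries) and multipara without treatment (2 libraries). S-961 is an insulin receptor antagonist that was injected intraperitoneally to raise the demand for insulin. The labels give the other mice as untreated and name no vehicle injection, so that S-961 and the injections themselves cannot be told apart. Nor do they say whether treated and untreated islets were isolated together. A difference in isolation or handling can therefore not be told apart from S-961 either. The labels were taken as deposited, and every direction between parity groups holds for libraries as labelled. The labels do not say whether each library came from 1 mouse or from pooled islets, and p-values therefore measure the spread between these libraries, which may be technical.

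Immediate early genes are transcribed within minutes of a stimulus, without new protein synthesis, through factors that are already present in the cell such as SRF with its ETS partners and CREB. *Fos*, *Fosb*, *Fosl2*, *Jun* and *Junb* encode subunits of the dimeric factor AP-1, and ATF3 is a related leucine zipper protein. *Egr1* and *Klf6* encode zinc finger factors, *Nr4a1* an orphan nuclear receptor, and *Ier2* a short nuclear protein. In beta cells, glucose and the calcium and cAMP signals that accompany insulin secretion are known inducers of several of these genes.

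The sequence upstream of the transcription start was examined for the element that CREB binds. RefSeq windows on GRCm38.p6 were used for 8 members, and those of *Egr1* and *Ier2* were not used here. The motif was the core of the cAMP response element, TGACG on either strand (CGTCA where it lies on the other strand). It is shown in capitals in the 250 bases before the start of *Fos* (chr12:85473640-85473889, plus strand), *Fosb* (chr7:19310046-19310295, minus strand) and *Nr4a1* (chr15:101266596-101266845, plus strand), which were printed because their transcripts were higher with S-961 in both parity groups.
Fos: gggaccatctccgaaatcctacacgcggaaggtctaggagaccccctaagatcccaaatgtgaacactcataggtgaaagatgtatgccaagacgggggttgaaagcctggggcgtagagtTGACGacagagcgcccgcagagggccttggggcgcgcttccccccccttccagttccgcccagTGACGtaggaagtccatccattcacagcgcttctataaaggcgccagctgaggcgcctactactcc
Fosb: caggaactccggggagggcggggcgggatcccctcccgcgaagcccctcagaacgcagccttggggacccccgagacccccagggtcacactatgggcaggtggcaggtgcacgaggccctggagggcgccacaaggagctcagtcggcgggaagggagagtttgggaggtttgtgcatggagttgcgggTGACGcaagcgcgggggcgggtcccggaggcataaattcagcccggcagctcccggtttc
Nr4a1: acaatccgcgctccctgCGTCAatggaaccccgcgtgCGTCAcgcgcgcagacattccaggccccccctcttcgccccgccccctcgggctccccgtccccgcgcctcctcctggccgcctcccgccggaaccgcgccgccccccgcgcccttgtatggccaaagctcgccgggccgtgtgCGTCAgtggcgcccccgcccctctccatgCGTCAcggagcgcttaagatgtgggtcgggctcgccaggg
The window of *Fosl2*, the other member of that kind, lies within the first exon of a second annotated transcript and is not printed. Each window is written 5′ to 3′ on the strand of the gene.

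*Nr4a1* held 4 cores, which began 233, 213, 69 and 40 bases before the start. *Fos* held 2, at 129 and 66 bases, and *Fosb* held 1 at 60 bases. *Junb* held 1 at 106 bases and *Atf3* held 1 at 7 bases, whereas *Fosl2*, *Jun* and *Klf6* held none. At least 1 core was thus present in 5 of the 8 windows, beside 17.8% of 32851 windows of the same length over all genes. At least 2 were present in 3.90% of all windows and at least 4 in 0.137%. The motif GCGNGGGCG, to which EGR proteins bind, was found on either strand in *Fosb*, *Fosl2* and *Nr4a1*, beside 4.70% of all windows. The full palindrome TGACGTCA, which overlaps the core, was in none of the 8 windows and in 1.55% of all windows. The bases that follow the start in the *Junb* window did not match its annotated transcripts, so that positions in *Junb* are less certain. The windows of *Atf3* and *Nr4a1* lie within the annotated gene, before an internal start. These matches describe the letters in the windows, and binding was not measured.

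**Figure D1:**
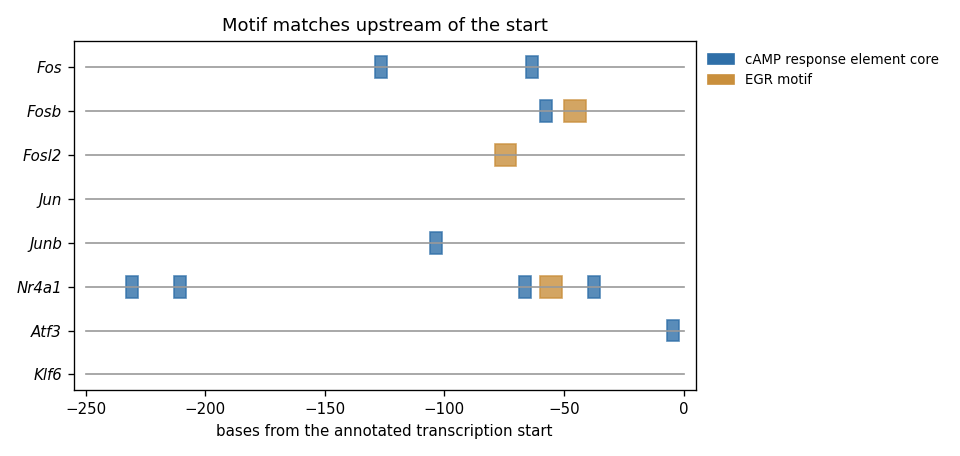
Motif matches in the 250 bases upstream of the start of 8 members. The horizontal axis gives bases from the annotated start, blue boxes are TGACG cores of the cAMP response element on either strand, and ochre boxes are EGR motifs. *Nr4a1* carries 4 cores, *Fos* 2, and *Jun* and *Klf6* neither motif.

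Total counts ran from 22028507 to 32234146 per library, and the members had between 85 and 53874 counts in a library. The spread between libraries limited precision where counts were high. For *Fosl2* without treatment, at 85 to 157 counts, the depth limited it as well. Levels are given as CPM, which are counts divided by an effective library size that the TMM method sets over all 11 libraries. The islet markers were present in each group. Beta cell markers (9 genes, all above 1 CPM) summed to 456705 to 614503 CPM in untreated and 122863 to 234029 CPM in S-961 libraries, alpha markers (3 genes) to 23772 to 50405 and 12515 to 21663 CPM, and delta markers (2 genes) to 3314 to 6097 and 1877 to 3387 CPM. Acinar markers (8 genes) moved the other way, with 43.3 to 108 CPM in untreated and 1374 to 9884 CPM in S-961 libraries, and of these *Ptf1a* was under 1 CPM in 3 of the 4 groups. Duct markers (5 genes) summed to 323 to 413 and 263 to 374 CPM and endothelial markers (5 genes) to 528 to 609 and 368 to 472 CPM, untreated and with S-961. The library labelled multipara S-961 4 stood apart from the other 3 of its group. Its correlation over the 500 most variable genes was 0.794 to 0.877 with the virgin S-961 libraries and 0.608 to 0.738 with the other multipara S-961 libraries. Its 8 proliferation genes summed to 12.4 CPM, beside 135 to 305 CPM in multipara S-961 1 to 3 and 11.8 to 30.7 CPM in the virgin S-961 libraries. Member calls that changed without it are given with and without it, and other values include it unless stated. The library labelled multipara untreated 1 had the highest sums of macrophage (784 CPM), lymphocyte (207 CPM), neutrophil (82.1 CPM) and red cell (2385 CPM) markers.

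**Figure D2:**
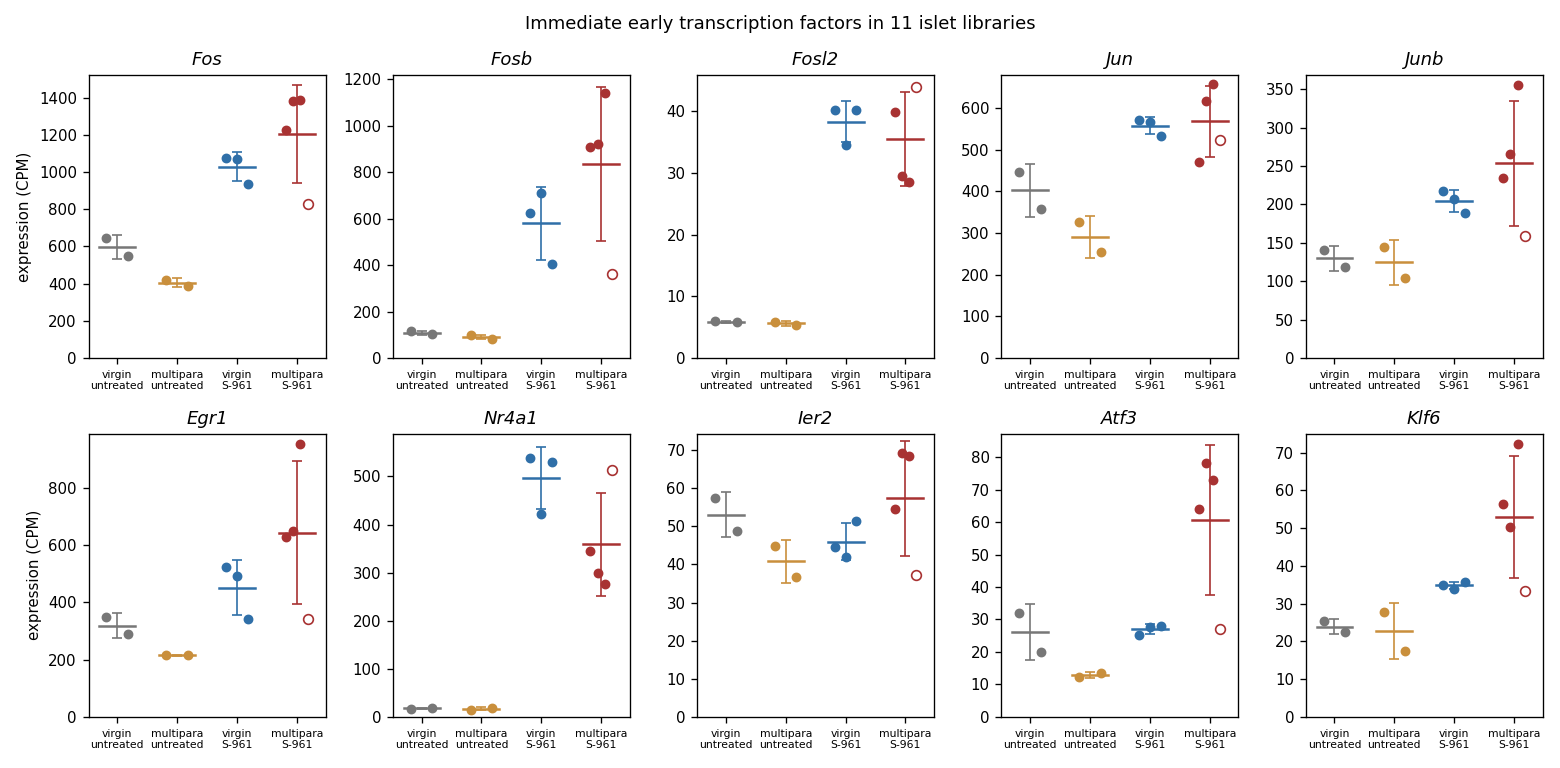
Level of each member in CPM in the 11 libraries, with a linear axis from 0 for each gene. Points are libraries, horizontal lines are group means and bars are SD; the open circle is multipara S-961 4. *Nr4a1* ran from 15.2 to 19.4 CPM without treatment and from 277 to 538 CPM with S-961.

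Levels of different genes were compared per kilobase of exon. *Fos* had the highest level in each group, from 172 ± 10.3 CPM per kb (SD, n = 2) in untreated multipara to 512 ± 112 (SD, n = 4) in multipara with S-961. *Jun* was second in each group, at 126 ± 19.7 (SD, n = 2) in untreated virgin and 175 ± 6.59 (SD, n = 3) in virgin islets with S-961. *Fosl2* was the lowest in each group, between 0.581 ± 0.039 (SD, n = 2) in untreated multipara and 3.96 ± 0.34 (SD, n = 3) in virgin islets with S-961. The place of *Nr4a1* in the order moved most. It was the ninth highest of 10 in both untreated groups, at 5.07 ± 0.20 and 4.92 ± 0.84 CPM per kb (SD, n = 2 each), the third highest in virgin islets with S-961 at 142 ± 18.5 (SD, n = 3) and the sixth highest in multipara with S-961 at 102 ± 30.5 (SD, n = 4). Neighbours in the order whose ranges of mean ± SD overlapped were *Egr1*, *Fosb* and *Junb* in virgin islets with S-961, and *Jun*, *Egr1*, *Fosb*, *Junb* and *Nr4a1* as well as *Ier2* and *Atf3* in multipara with S-961. Without treatment they were *Egr1* and *Junb*, *Fosb* and *Atf3* as well as *Klf6* and *Nr4a1* in virgin islets, and *Junb* and *Egr1* as well as *Atf3*, *Klf6* and *Nr4a1* in multipara.

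S-961 was compared with no treatment in virgin islets to see how the levels of the genes differed between these libraries. *Nr4a1*, *Fosl2*, *Fosb* and *Fos* were higher with S-961 and the other 6 members did not pass the test. In the quasi-likelihood test of edgeR, adjusted by Benjamini-Hochberg over all genes, 36.5% of 17996 genes passed an adjusted p of 0.05 in either direction and 18.8% were higher, beside 4 of the 10 members, all 4 higher. This fit held all 11 libraries. Fitted on the virgin libraries alone, 8 members passed, all 8 higher, beside 8500 of 16586 genes in either direction. The median log2 fold change was 0.60 over the members and -0.04 over all genes. The S-961 libraries lay above both untreated libraries for 7 members, beside 32.8% of all genes tested. In bulk RNA, a lower share of cells of a type and less RNA per cell cannot be told apart, and the part of the acinar and islet marker changes in these results was not tested.

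*Nr4a1*, which encodes the nuclear receptor NUR77, was at 538, 422 and 531 CPM in virgin S-961 1 to 3 and at 17.3 and 18.3 CPM in virgin untreated 1 and 2. The groups were far apart and the difference was 27.9-fold (log2 fold change 4.80 ± 0.31 SE, adjusted p = 3.24e-05, edgeR). *Fosl2*, which encodes the AP-1 subunit FRA-2, was at 40.2, 34.6 and 40.2 CPM with S-961 and at 6.01 and 5.76 CPM without. Its difference was 6.51-fold (log2 fold change 2.70 ± 0.21 SE, adjusted p = 6.98e-05, edgeR), from a low starting level. *Fosb* was at 624, 711 and 407 CPM with S-961 and at 115 and 102 CPM without. Its spread with S-961 was wider, with replicate 3 lowest, and the difference was 5.36-fold (log2 fold change 2.42 ± 0.43 SE, adjusted p = 0.00168, edgeR).

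*Fos* was at 1078, 1072 and 938 CPM with S-961 and at 645 and 550 CPM without. The groups did not overlap, and the difference was 1.72-fold (log2 fold change 0.78 ± 0.22 SE, adjusted p = 0.0168, edgeR). This call rested on single libraries, since the adjusted p was 0.0503 without virgin S-961 1, 0.0622 without virgin untreated 1 and 0.148 without virgin untreated 2, and its range over all alternatives was 0.000467 to 0.148. *Jun*, *Junb* and *Klf6* also had no overlap, with log2 fold changes of 0.47, 0.66 and 0.54 and adjusted p of 0.0669, 0.091 and 0.153. In the edgeR fit on the virgin libraries alone, their adjusted p were 0.0137, 0.00243 and 0.00289. DESeq2 gave 0.0150, 0.0370 and 0.106. *Egr1* overlapped, since virgin S-961 3 at 341 CPM lay within the untreated values of 349 and 289 CPM (log2 fold change 0.50 ± 0.34 SE, adjusted p = 0.277). Its adjusted p was 0.0478 in the edgeR fit on the virgin libraries alone and 0.199 with DESeq2. *Atf3* and *Ier2* overlapped between the groups as well. *Atf3* was at 25.3, 27.6 and 28.0 CPM with S-961 and at 32.1 and 20.0 CPM without, and its log2 fold change of 0.05 ± 0.36 SE (adjusted p = 0.929) had the opposite sign, -0.25, without virgin untreated 2. *Ier2* had a log2 fold change of -0.21 ± 0.23 SE (adjusted p = 0.518). Scaled by library totals alone, without TMM, all S-961 differences in virgin islets were larger by 0.47 on the log2 scale and that of *Ier2* became positive, at 50.9 against 42.7 CPM.

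**Figure D3:**
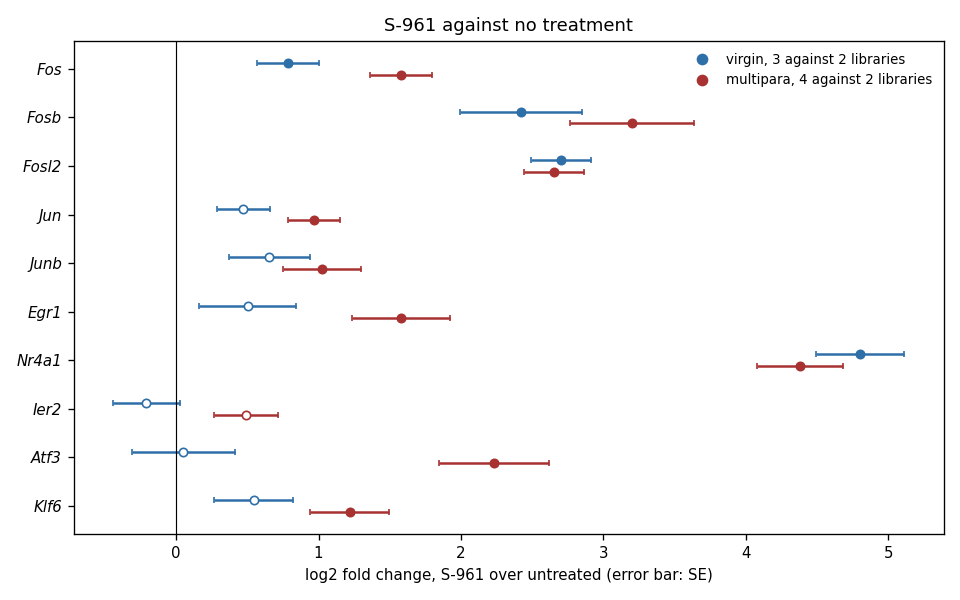
Log2 fold change of each member with S-961 against no treatment, in virgin (blue) and multipara (red) islets. Points are edgeR estimates, bars are SE and filled points passed an adjusted p of 0.05. *Nr4a1* is farthest to the right in both, at 4.80 and 4.38, and *Atf3* is at 0.05 in virgin and 2.23 in multipara.

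In multipara islets, all members but *Ier2* were higher with S-961. These were 9 of 10 members, beside 37.6% of 17996 genes that passed in either direction and 18.2% that were higher. The median log2 fold change was 1.58 over the members and 0.03 over all genes. The 4 S-961 libraries lay above both untreated libraries for 9 members, beside 24.5% of all genes. Without multipara S-961 4, all 10 members passed, beside 35.8% of genes in either direction. In that fit *Nr4a1* differed 17.8-fold, *Fosb* 10.9-fold, *Fosl2* 5.79-fold, *Atf3* 5.55-fold and *Egr1* 3.45-fold. The values that follow include this library unless stated. Leaving out multipara untreated 1, the library with the high blood cell markers, left 1 untreated multipara library. All 10 members then had positive log2 fold changes, with a median of 1.62 beside 0.12 over all genes.

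*Nr4a1* was at 345, 300, 277 and 514 CPM in multipara S-961 1 to 4 and at 15.2 and 19.4 CPM without treatment. This was a 20.8-fold difference (log2 fold change 4.38 ± 0.30 SE, adjusted p = 2.74e-05, edgeR), and replicate 4 was the highest of its group. *Fosb* was at 909, 922, 1141 and 362 CPM with S-961 and at 97.5 and 83.5 CPM without. Here replicate 4 was the lowest, and the difference was 9.21-fold (log2 fold change 3.20 ± 0.43 SE, adjusted p = 0.000442, edgeR). *Fosl2* was at 39.9, 29.6, 28.5 and 44.0 CPM with S-961 and at 5.90 and 5.36 CPM without, a 6.29-fold difference (log2 fold change 2.65 ± 0.21 SE, adjusted p = 6.90e-05, edgeR). *Atf3*, which encodes a stress-induced repressor and activator of the ATF family, was at 64.0, 78.2, 73.0 and 27.1 CPM with S-961 and at 12.2 and 13.6 CPM without. Its groups did not overlap, and its difference was 4.69-fold (log2 fold change 2.23 ± 0.38 SE, adjusted p = 0.00154, edgeR).

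The other AP-1 subunits rose less. *Fos* was at 1226, 1381, 1387 and 826 CPM with S-961 and at 421 and 386 CPM without, and rose 2.99-fold (log2 fold change 1.58 ± 0.22 SE, adjusted p = 0.000488, edgeR). *Jun* was at 472, 618, 659 and 525 CPM with S-961 and at 326 and 256 CPM without, and rose 1.96-fold (log2 fold change 0.97 ± 0.18 SE, adjusted p = 0.00231, edgeR). *Jun* shares its position with the antisense gene *Junos* and its counts were not whole in any library, so that its level is less certain. *Junb* was at 234, 265, 356 and 159 CPM with S-961 and at 145 and 104 CPM without. The lowest treated and the highest untreated library of *Junb* were close, and its 2.03-fold rise (log2 fold change 1.02 ± 0.27 SE, adjusted p = 0.0144, edgeR) was lost without multipara untreated 2 (adjusted p = 0.122) and in the fit on the multipara libraries alone (adjusted p = 0.0579), with a range over the alternatives of 0.000577 to 0.122.

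Both zinc finger factors rose in multipara islets. *Egr1*, a target of the ERK pathway, was at 628, 648, 953 and 341 CPM with S-961 and at 216 and 214 CPM without, a 2.98-fold rise (log2 fold change 1.58 ± 0.34 SE, adjusted p = 0.00528, edgeR). *Klf6* was at 56.3, 50.3, 72.2 and 33.3 CPM with S-961 and at 27.9 and 17.5 CPM without, a 2.33-fold rise (log2 fold change 1.22 ± 0.28 SE, adjusted p = 0.00643, edgeR). The call of *Klf6* was lost without multipara untreated 2 (adjusted p = 0.0654, range over the alternatives 7.37e-05 to 0.0654). *Ier2* was at 54.6, 69.3, 68.5 and 37.2 CPM with S-961 and at 44.8 and 36.8 CPM without. Replicate 4 lay between the untreated libraries, and the log2 fold change of 0.49 ± 0.23 SE did not pass (adjusted p = 0.112, range 0.0127 to 0.409). Without multipara S-961 4 it was 0.65 ± 0.16 SE (adjusted p = 0.0127).

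Multipara and virgin islets were compared under S-961 to ask whether levels with treatment differed with parity. No member passed in the comparison of 4 with 3 libraries, and neither did any other gene (0% of 16784 genes). At an unadjusted p under 0.05 there were 1630 genes, among them *Atf3* and *Klf6*, and DESeq2 called 369 genes (2.20%), of which *Atf3* was the only member. The log2 fold change was positive for 8 members and negative for *Nr4a1* and *Fosl2*, with a median of 0.33 over the members and 0.00 over all genes. The groups overlapped for all 10 members, whereas multipara was entirely above virgin for 5.23% and entirely below for 3.64% of all genes.

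Most of this overlap came from the library multipara S-961 4. Of the 4 multipara S-961 libraries it was the lowest for 7 members (*Fos*, *Fosb*, *Junb*, *Egr1*, *Ier2*, *Atf3* and *Klf6*) and the highest for *Nr4a1* and *Fosl2*. It lay below the virgin S-961 range for 7 members, within it for *Nr4a1* and *Atf3* and above it for *Fosl2*. The other 3 multipara libraries were all above the virgin S-961 libraries for the 7 members in which it was the lowest, beside 13.7% of genes that did so. They were all below for *Nr4a1*, beside 10.9% of genes, and overlapped for *Fosl2* and *Jun*. This library was named as apart from the rest after its values were seen. Whether its label and those of the other S-961 libraries are right, and the cause of its position, was not tested.

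*Atf3* had the widest gap. Its level was 64.0, 78.2 and 73.0 CPM in multipara S-961 1 to 3, and 25.3 to 28.0 CPM in the virgin S-961 libraries, while multipara S-961 4 at 27.1 CPM lay among the latter. With all 7 libraries, the log2 fold change was 1.19 ± 0.32 SE (2.27-fold, unadjusted p = 0.00474, adjusted p = 0.315, edgeR). Without multipara S-961 4 it was 1.43 ± 0.13 SE (2.70-fold, adjusted p = 0.00295), in a fit that called 3.16% of 16590 genes, and the range of adjusted p over the alternatives was 0.00295 to 0.785. DESeq2 gave an adjusted p of 0.0147 with all libraries. *Klf6* was at 34.9, 33.8 and 35.8 CPM in virgin S-961 1 to 3 and at 50.3 to 72.2 CPM in multipara S-961 1 to 3. Its log2 fold change was 0.63 ± 0.23 SE (adjusted p = 0.425) with and 0.80 ± 0.16 SE (adjusted p = 0.0391) without replicate 4, with a range of 0.0391 to 0.817.

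No other member passed with or without this library. *Fosb* had log2 fold changes of 0.55 and 0.80 (adjusted p = 0.663 and 0.112), and *Egr1* 0.53 and 0.75 (adjusted p = 0.627 and 0.149). *Fos*, the most abundant member per kilobase, had 0.25 and 0.40 (adjusted p = 0.731 and 0.212). *Nr4a1* had -0.46 ± 0.22 SE with and -0.67 ± 0.16 SE without replicate 4 (adjusted p = 0.543 and 0.0741), and *Fosl2* had -0.10 and -0.21 (adjusted p = 0.883 and 0.593). *Jun* was at 0.04 and turned to -0.04 without multipara S-961 3. Stromal markers (6 genes, all above 1 CPM) summed to 64.1 to 69.2 CPM in virgin and 127 to 278 CPM in multipara S-961 libraries. Acinar markers summed to 6671 to 9884 CPM in multipara S-961 1 to 3, to 3511 CPM in replicate 4 and to 1374 to 5378 CPM in virgin libraries. The part of these cells and of the proliferation genes in the differences was not tested.

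**Figure D4:**
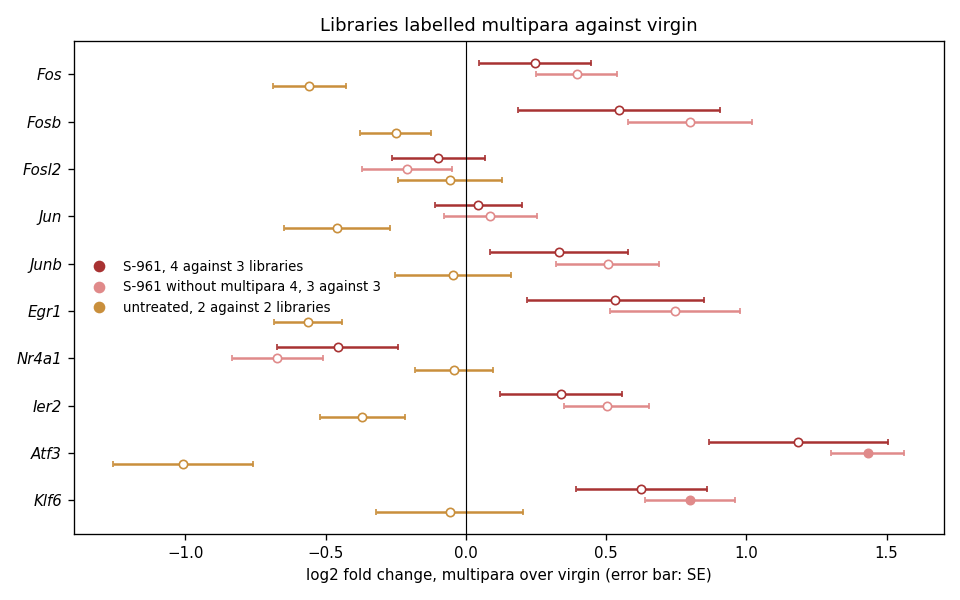
Log2 fold change of each member in multipara against virgin libraries, under S-961 with all libraries (dark red), under S-961 without multipara S-961 4 (light red) and without treatment (ochre). Bars are SE of the edgeR fit and filled points passed an adjusted p of 0.05. *Atf3* lies at 1.19, 1.43 and -1.01 and is filled, with *Klf6*, only without multipara S-961 4.

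Without treatment, all 10 members had lower fitted levels in multipara than in virgin islets and none passed the test, as was the case for all genes (0% of 15812). The median log2 fold change was -0.31 over the members and 0.02 over all genes. Both multipara libraries were below both virgin libraries for *Fos*, *Fosb*, *Jun*, *Egr1*, *Ier2* and *Atf3*, 6 of 10 members, beside 18.8% of all genes. At an unadjusted p under 0.05 there were 889 genes, and DESeq2 called 56 (0.354%). Leaving out 1 untreated library left a single library in its group, with no spread of its own. The counts of those fits therefore do not show on which library the count of 0 rests. Other lists lay to 1 side in the same comparison without passing. Heat shock genes were lower in multipara for 10 of 10 genes (median log2 fold change -0.24) and alpha markers for 3 of 3 (-0.55). Markers of lymphocytes (5 of 5 genes, median 2.90), red cells (5 of 5, 3.12) and macrophages (6 of 6, 0.89) were higher. The part of these cells in the members' differences was not tested.

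*Egr1* was at 349 and 289 CPM in virgin and at 216 and 214 CPM in multipara islets. The multipara values were close to each other and the log2 fold change was -0.56 ± 0.12 SE (unadjusted p = 0.00737, adjusted p = 0.719, edgeR). *Fos* had a log2 fold change of -0.56 ± 0.13 SE (unadjusted p = 0.00973, adjusted p = 0.719), from 645 and 550 CPM in virgin and 421 and 386 CPM in multipara islets. DESeq2 called *Fos* (adjusted p = 0.00332) and *Egr1* (adjusted p = 0.00394), each the lowest of its alternatives, of which the highest was 1. *Atf3* was at 32.1 and 20.0 CPM in virgin and at 12.2 and 13.6 CPM in multipara islets, a 2.01-fold lower level in multipara (log2 fold change -1.01 ± 0.25 SE, unadjusted p = 0.0123, adjusted p = 0.719). DESeq2 did not call *Atf3* (adjusted p = 0.169). Its log2 fold change ran from -1.31 to -0.63 over the alternatives, of which those without an untreated library left a single one in its group. *Fosl2*, *Junb*, *Nr4a1* and *Klf6* had log2 fold changes between -0.06 and -0.04, and each changed sign when 1 library was left out.

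Whether the response to S-961 differed with parity was tested as an interaction over all 11 libraries. No member and no other gene passed (0% of 17996 genes, with 1179 at an unadjusted p under 0.05). *Atf3* had the smallest p of the members, with an interaction of 2.18 ± 0.51 SE on the log2 scale (unadjusted p = 0.00135, adjusted p = 0.409, edgeR), made of a difference of 0.05 in virgin and of 2.23 in multipara islets. It passed without multipara S-961 4 (2.42 ± 0.27 SE, adjusted p = 0.0157), where 0.252% of genes did, and with DESeq2 (adjusted p = 0.0132), where 0.439% did, and its range over the alternatives was 0.0132 to 1. *Egr1* (1.08 ± 0.47 SE, adjusted p = 0.758) and *Fos* (0.79 ± 0.29 SE, adjusted p = 0.706) were below 0.05 only before adjustment. That 9 members passed in multipara and 4 in virgin islets therefore does not show that the responses differed. In fits on the libraries of each parity group alone, 8 members passed in each. These stood beside 4428 of 17438 genes in multipara and 8500 of 16586 genes in virgin islets. The 5 comparisons share libraries and are not independent of each other.

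**Figure D5:**
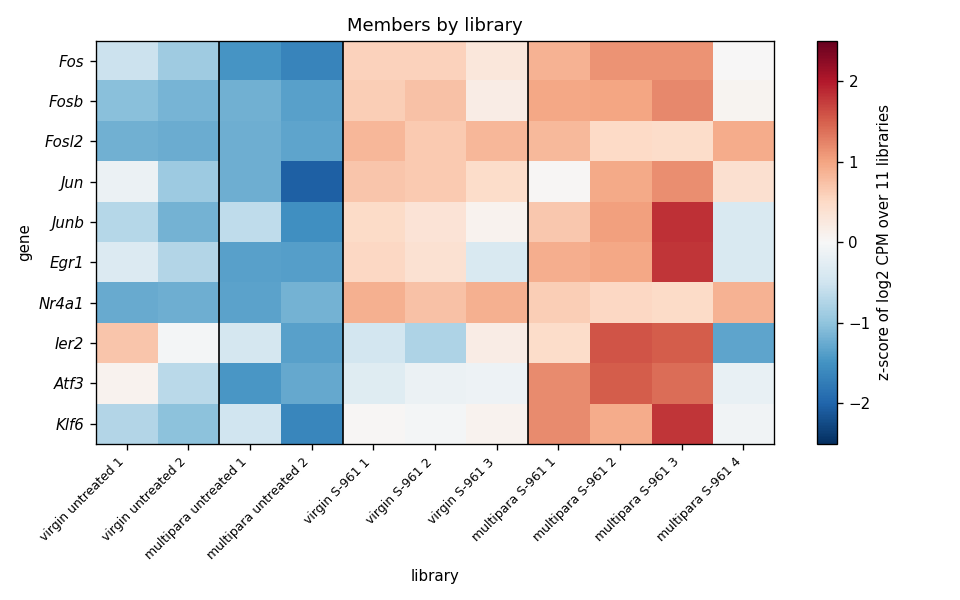
Each member in each library as a z-score of its log2 CPM over the 11 libraries, from blue (low) to red (high), with black lines between groups. The mean z-score of the members was 0.77 to 1.27 in multipara S-961 1 to 3, -0.01 in multipara S-961 4, 0.25 to 0.39 in virgin S-961 and -1.47 to -0.52 in untreated libraries.

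The other genes of the response were described from lists written out by hand. Counts that rose or fell stand beside 36.5% of all genes that passed in virgin and 37.6% in multipara islets. Of all genes, 18.8% and 18.2% passed as higher. Of 20 further immediate early transcription factors, 13 rose and none fell with S-961 in virgin islets (median log2 fold change 1.26), and 11 rose and none fell in multipara islets (median 1.17). *Npas4*, an activity-dependent factor induced by calcium, was at 97.7 to 104 CPM in virgin and 60.8 to 95.9 CPM in multipara S-961 libraries and at 6.12 to 7.73 CPM without treatment. Its log2 fold changes were 3.96 ± 0.21 SE and 3.46 ± 0.20 SE (adjusted p = 1.93e-05 and 2.12e-05, edgeR). Of the relatives of *Nr4a1*, *Nr4a2* rose by 2.51 ± 0.26 SE in virgin and 2.81 ± 0.26 SE in multipara islets (adjusted p = 0.000161 and 9.31e-05). *Nr4a3* had 3.38 ± 0.67 SE and 1.45 ± 0.58 SE (adjusted p = 0.00304 and 0.0702). *Myc*, a growth-promoting factor, rose by 2.84 ± 0.34 SE and 2.04 ± 0.32 SE on the log2 scale (adjusted p = 0.000277 and 0.000877). *Cebpb* rose by 1.83 and 2.26 (adjusted p = 0.000644 and 0.000226), and *Egr3* had 3.20 and 0.28 (adjusted p = 0.0353 and 0.807). The difference between the parity groups did not pass for any of these genes. For *Egr3* and *Nr4a3*, multipara untreated 1 was the higher of the untreated multipara libraries. *Egr3* was at 3.39 CPM in it, 0.0630 CPM in multipara untreated 2 and 1.60 to 3.09 CPM in multipara S-961 libraries. *Nr4a3* was at 1.43, 0.315 and 1.57 to 4.37 CPM. Without multipara untreated 1, which left 1 untreated multipara library, their log2 fold changes in multipara islets were 4.997 and 2.94.

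Of 11 other AP-1 family genes, 10 were tested. In virgin islets 5 rose and none fell (median 0.48), and in multipara islets 6 rose and 3 fell (median 0.70). *Jund*, the JUN protein known for its steady expression, was at 240.5 to 463 CPM with S-961 and at 63.2 to 110 CPM without it. It rose by 1.63 ± 0.25 SE in virgin and 2.31 ± 0.25 SE in multipara islets on the log2 scale (adjusted p = 0.000881 and 0.000167). The small MAF proteins lack an activation domain. Of their genes, *Mafg* (1.02 and 0.66) and *Mafk* (0.63 and 0.83) rose in virgin and multipara islets, as did *Atf7* (0.87 and 0.82) and *Atf2* (0.78 and 0.74). *Maff* had 0.33 and 1.01 (adjusted p = 0.18 and 0.00183). *Batf*, *Batf2* and *Jdp2* fell in multipara islets, with log2 fold changes of -3.12, -3.11 and -1.28 (adjusted p = 0.00626, 0.0461 and 0.0238). *Batf* is known from lymphocytes. It was at 4.20 CPM in multipara untreated 1, 0.756 CPM in multipara untreated 2 and 0.116 to 0.414 CPM with S-961. *Batf2* was at 2.81, 0.252 and 0 to 0.463 CPM. Multipara untreated 1 was thus the high library, and it held 207 CPM of lymphocyte markers (5 genes) beside 24.6 CPM in multipara untreated 2. Without it, which left 1 untreated multipara library, the log2 fold changes of *Batf*, *Batf2* and *Jdp2* were -1.40, -0.51 and -0.87. The median of the list was then 0.65.

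Among 30 effector and feedback genes that are induced together with these factors, 13 rose and 3 fell in virgin islets (median 0.74), and 20 rose and 3 fell in multipara islets (median 0.91). *Dusp4*, a phosphatase that switches off ERK, rose by 3.66 ± 0.24 SE and 3.21 ± 0.23 SE on the log2 scale (adjusted p = 3.24e-05 and 3.63e-05). *Sik1*, a kinase induced by cAMP that restrains CREB coactivators, rose by 2.77 ± 0.33 SE and 2.99 ± 0.33 SE (adjusted p = 0.000286 and 0.000174). *Plk3* (1.91 and 1.68), *Spry4* (1.80 and 1.55), *Socs3* (1.37 and 2.05) and *Dusp1* (1.09 and 1.76) also rose in both parity groups. *Btg1* and *Ccn2* fell in both. *Gadd45b* fell in virgin islets (-1.14, adjusted p = 0.0132) and was at -0.20 in multipara islets (adjusted p = 0.605). *Dusp2* passed as lower in multipara islets with multipara untreated 1 in the fit, where it was at 12.4 CPM, beside 0.63 CPM in multipara untreated 2 and 0.611 to 1.34 CPM with S-961. Without that library, its log2 fold change was 0.69.

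Of 17 upstream kinases and factors, 5 rose and 1 fell in virgin islets and 3 rose and 2 fell in multipara islets, with medians of 0.13 and 0.03. These 6 and 5 of 17 genes are a share no larger than the 36.5% and 37.6% of all genes that passed. *Srf*, which binds the serum response element of *Fos* and *Egr1*, rose by 0.92 ± 0.13 SE and 0.87 ± 0.13 SE (adjusted p = 0.000639 and 0.000635), and the kinase gene *Rps6ka3* by 1.31 ± 0.19 SE and 1.02 ± 0.18 SE (adjusted p = 0.000616 and 0.00163). *Mapk8* rose by 0.46 and 0.54 in virgin and multipara islets, and *Mapk14* fell (-0.41 and -0.49). *Elk3* had 0.81 and 0.38 (adjusted p = 0.024 and 0.216), and *Mapk3* had -0.31 and -0.41 (adjusted p = 0.0989 and 0.0289).

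*Atf3* is also known as a gene of the integrated stress response, which was listed for comparison together with the heat shock genes. Of 9 genes of the integrated stress response, 1 rose and 5 fell in virgin and 1 rose and 6 fell in multipara islets (medians -1.13 and -1.40). *Trib3* fell, with log2 fold changes of -4.13 and -3.44 (adjusted p = 0.000479 and 0.000541), *Chac1* with -3.28 in each (adjusted p = 0.000161 and 9.60e-05) and *Ddit3*, which encodes CHOP, with -1.64 and -2.02 (adjusted p = 0.000241 and 7.88e-05). *Ppp1r15a*, itself an early response gene, was the one that rose (0.59 and 0.81). Of 10 heat shock genes, *Bag3* rose and *Hspe1* fell in virgin islets, and *Bag3* and *Dnajb1* rose and *Hspe1* fell in multipara islets, with medians of -0.21 and 0.01. None of the genes on these 6 lists passed in the comparisons of multipara with virgin or in the interaction. Without multipara S-961 4, 2 of the further immediate early factors were higher in multipara under S-961. In that fit all 8 proliferation genes were higher in libraries labelled multipara as well (median log2 fold change 3.58). None passed with all libraries (median 3.19). These genes were high in multipara S-961 1 to 3 and low in multipara S-961 4 and in all virgin S-961 libraries. Their direction depends on the labels of the S-961 libraries, and whether these labels are right was not tested.

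The genes whose pattern was most like that of the members were found by the correlation of their log2 CPM with the mean z-score of the members, among 11277 genes. The 10 highest were *Dusp1* (r = 0.99), *Klf4* (0.99), *Socs3* (0.97), *Xpo1* (0.96), *Jund* (0.96), *Ppp1r15a* (0.96), *Arc* (0.95), *Csrnp1* (0.95), *Dsc2* (0.95) and *Prr7* (0.95), with n = 11 libraries. The libraries fall into untreated and S-961 sets, so that r describes these libraries only. The mean z-score also joins members that moved in opposite directions within groups. Over all 11 libraries the 45 pairs of members correlated positively. In deviations from the group means, the 16 pairs of *Nr4a1* or *Fosl2* with the other 8 members had r from -0.91 to -0.47. The 28 pairs among those 8 had r from 0.42 to 0.95. *Dusp1* was at 197 to 220 CPM in virgin S-961, 245 to 312 CPM in multipara S-961 1 to 3, 157 CPM in multipara S-961 4 and 65.0 to 110 CPM in untreated libraries. When deviations from the group means were ranked in place of levels, *Dusp1* (r = 0.97) was the 1 gene shared by both lists of 10.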

How the data were processed

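Islet RNA was made into poly(A)-selected, strand-specific libraries. The authors deposited 1 table of expected counts per library, without normalization, and the submitters' processing notes name STAR, RSEM and the builds GRCm38 and mm10, with no versions. Between 4449 and 5162 genes per library had values that were not whole, as happens where reads are divided between genes, and values were rounded here. Coordinates and exon lengths came from GENCODE M21 (GRCm38).

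Libraries were grouped by their labels. Groups were compared in R 4.3.3 by edgeR 4.0.16, with TMM, filterByExpr (minimum count 10, minimum total 15), the quasi-likelihood F-test and Benjamini-Hochberg adjustment over all genes tested, at a threshold of 0.05. Parity comparisons were fitted on the libraries of 1 treatment and the others on all 11. Alternatives were relative log expression (RLE) size factors in place of TMM within edgeR, the test of DESeq2 1.42.0 and no filter. Further ones were other libraries in the fit, the replicate number as a block and each library left out. For levels, library totals without TMM were tried, and, chosen after seeing the data, the lists without multipara untreated 1. z-scores used log2 CPM with a prior count of 2. The fits were tested on simulated counts.

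The members and lists were chosen with earlier results of these data known. The genes named were the 10 members, up to 4 genes per direction of each list with an adjusted p under 0.05, and the 10 genes most like the members, with a mean log2 CPM of at least 2. Of the listed symbols, 4 were older names and were replaced through RefSeq. The printed promoter windows were chosen, and multipara S-961 4 was singled out, after the values were seen. Marker lists of islet, acinar, duct, endothelial, stromal, immune and red cells were summed per library.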

Additional observations from a re-analysis of the deposited data

How the results depend on the processing

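Of the 570 member values recomputed, 535 kept their direction and their side of the threshold. In these fits the direction changed for 6 members, each time on leaving out 1 library, and levels scaled by library totals turned *Ier2* positive in virgin islets (0.25). Over the libraries left out, *Jun* under S-961 ran from -0.043 (without multipara S-961 3) to 0.12. Untreated, *Fosl2* ran from -0.16 to 0.017 (without multipara 2), *Junb* from -0.34 to 0.18 (without multipara 2, and 0.077 without virgin 1), *Klf6* from -0.47 to 0.24 (without multipara 2, and 0.022 without virgin 1) and *Nr4a1* from -0.21 to 0.099 (without multipara 1). *Atf3* in virgin islets ran from -0.25 (without virgin untreated 2) to 0.44, and the interaction of *Fosl2* from -0.17 to 0.043 (without multipara S-961 3), with 0.039 without multipara S-961 2 and 0.027 without multipara untreated 1. The causes were not tested.

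For multipara against virgin under S-961 (0 genes, 0 members), DESeq2 called 369 genes and 1 member, and leaving out libraries gave 0 to 525 genes and 0 to 2 members. Untreated (0 and 0), DESeq2 called 56 genes and 2 members, no filter gave 3 genes, and leaving out libraries gave 0 to 1738 genes and 0 to 1 members. For S-961 in virgin islets (6562 and 4), the fit on its own libraries called 8500 of 16586 genes and 8 members. Leaving out libraries gave 3053 to 6121 genes and 3 to 4 members, with the lowest gene count without virgin untreated 2. For S-961 in multipara islets (6768 and 9), the fit on its own libraries called 4428 genes, and leaving out libraries gave 3618 to 7451 genes and 7 to 10 members, with the lowest gene count without multipara untreated 1. For the interaction (0 and 0), DESeq2 called 79 genes and 1 member, no filter gave 4 genes, and leaving out libraries gave 0 to 45 genes and 0 to 1 members. Where 1 library remained in a group, it was assumed to vary like the others.

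Same-numbered libraries did not deviate together in every pair. The correlation was 0.01 to 0.09 between the S-961 groups, 0.28 between the untreated groups and -0.15 to 0.12 across treatments. No source says that a number marks a batch or mouse, so that the libraries were taken to share only a number. With the replicate block, 342 genes and 1 member (*Atf3*) passed under S-961, 34 genes and 1 member (*Atf3*) in the interaction, 5971 genes and 4 members for S-961 in virgin and 5630 genes and 10 members in multipara islets, and none in the untreated comparison.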
